A study of Mus musculus with 6 samples.

Results

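Histone lysine methyltransferases and demethylases were followed in fully grown mouse oocytes without the catalytic subunits Ring1 and Rnf2 of Polycomb repressive complex 1 (PRC1). The members were 37 genes listed by symbol, namely the enzymes that add or remove methyl groups on histone lysines outside PRC1 and PRC2, out of 24028 genes in the deposited table. All 37 symbols were found. They comprised 25 genes of methyltransferase families and 12 demethylase genes, grouped here by target residue into 8 classes. The control group was Ring1 -/-; Rnf2 f/f, with 3 libraries, and the dKO group was Ring1 -/-; Rnf2 f/f; Zp3-cre, with 3 libraries. Both groups therefore lacked Ring1 and carried floxed Rnf2 on a mixed FVB, 129/Sv and C57BL/6J background. Only the dKO group carried the Zp3-cre transgene, whose recombinase is active in growing oocytes, so Rnf2 was lost during oocyte growth, and effects of the transgene itself and of Rnf2 loss cannot be told apart. No library with intact Ring1 was analysed here. Each library was made from total RNA of 15 germinal vesicle oocytes pooled from 1 female of about 3 months, so replicates were separate animals. In such bulk RNA, fewer cells of a type and less RNA per cell cannot be told apart.

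PRC1 ubiquitinates histone H2A and, with the H3K27 methylation set by PRC2, keeps genes silent. Most enzymes described here act on other lysines, and Kdm6b removes methyl groups from H3K27. Methylation of H3K4 marks active promoters and enhancers, H3K36 and H3K79 methylation mark transcribed gene bodies, and H3K9 and H4K20 methylation mark heterochromatin and, at H4K20, also chromatin in the cell cycle. Most methyltransferases carry a SET domain. The demethylases are either flavin-dependent (the Kdm1 enzymes) or belong to the iron-dependent Jumonji family. In the growing oocyte these marks help to direct DNA methylation, and many of the enzymes are stored as maternal RNA or protein for the embryo.

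The upstream sequences of 3 members are shown because these members gave the largest rises (Kmt2a and Setd7) and a fall in a heterochromatin enzyme (Suv39h1). They are the 250 bases before an annotated start, 5′ to 3′, from RefSeq on build GRCm38.p6, whereas the deposited values were made on mm9. Capitals mark CpG dinucleotides (a C followed by a G), which gather in CpG islands, where Polycomb complexes commonly bind in other cells. All lie on the minus strand: Kmt2a at chr9:44881290-44881539, Setd7 at chr3:51560824-51561073, and Suv39h1, which has a pair of annotated starts, at chrX:8074362-8074611 and chrX:8074761-8075010.
Kmt2a: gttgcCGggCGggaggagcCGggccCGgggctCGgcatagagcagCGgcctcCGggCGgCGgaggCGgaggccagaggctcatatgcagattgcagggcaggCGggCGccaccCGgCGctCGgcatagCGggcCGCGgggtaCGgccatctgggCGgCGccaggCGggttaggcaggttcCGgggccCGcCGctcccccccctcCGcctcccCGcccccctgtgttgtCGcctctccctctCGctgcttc
Setd7: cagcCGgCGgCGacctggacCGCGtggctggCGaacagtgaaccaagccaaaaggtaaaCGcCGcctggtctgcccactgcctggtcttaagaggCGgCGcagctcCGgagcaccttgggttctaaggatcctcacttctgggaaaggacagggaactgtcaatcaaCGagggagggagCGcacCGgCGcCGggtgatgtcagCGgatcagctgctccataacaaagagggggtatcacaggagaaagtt
Suv39h1, downstream start: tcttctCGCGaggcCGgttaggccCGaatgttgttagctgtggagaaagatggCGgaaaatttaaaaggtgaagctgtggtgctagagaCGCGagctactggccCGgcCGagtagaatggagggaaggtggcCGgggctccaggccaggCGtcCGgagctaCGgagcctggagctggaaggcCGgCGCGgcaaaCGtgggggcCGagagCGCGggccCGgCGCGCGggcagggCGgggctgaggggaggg
Suv39h1, upstream start: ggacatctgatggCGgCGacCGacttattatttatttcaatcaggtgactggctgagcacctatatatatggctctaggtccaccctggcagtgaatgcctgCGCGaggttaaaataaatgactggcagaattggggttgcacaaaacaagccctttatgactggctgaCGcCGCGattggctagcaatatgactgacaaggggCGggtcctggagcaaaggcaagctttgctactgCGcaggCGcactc
These stretches held 29 CpG in Kmt2a, 17 in Setd7, and 25 and 11 at the Suv39h1 starts. In the longer windows of 300 bases described next, the counts were 36, 21, and 37 and 15. Of the 37 members, 24 had at least 1 entry in the promoter table, 33 windows in all, each reaching from 250 bases before to 50 bases after the start. The members' windows held a median of 27 CpG (range 0 to 56), against a median of 7 over all 32851 windows in the table. The E-box CACGTG, which reads the same on both strands, was present in 9.09% of the members' windows and 7.15% of all windows. GGCGGGA, a core of E2F-type motifs, on either strand, was present in 30.3% and 11.3%, and GGGCGG, the GC box, on either strand, in 72.7% and 35.7%. The window of Kmt2a held GGCGGGA and GGGCGG, those of Suv39h1 only GGGCGG, and that of Setd7 none of them. These are letter matches in windows rich in CpG, and no test of binding was made.

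Rnf2, the gene deleted in the dKO, was lower in every dKO library. It stood at 53.7, 46.8 and 48.2 FPKM in controls 1 to 3 and at 14.8, 8.44 and 5.31 FPKM in dKO libraries 1 to 3. The dKO mean was 19.2% of the control mean. Ring1, deleted in both groups, was at most 0.240 FPKM in all 6 libraries. FPKM are fragments scaled by transcript length and by the mapped fragments of the library, so levels can be compared between genes per unit length. Absolute depth is unknown. The relative depth of the libraries, estimated from the most frequent ratio of low values between libraries, was 0.661, 0.805 and 1.08 in dKO libraries 1 to 3, against 0.903 to 1.02 in controls. Oocyte markers were abundant in every library (summed level of 10 genes 7805 to 8043 FPKM in controls and 4528 to 6330 FPKM in dKO), and of the 10 limma called 0 higher and 2 lower, Bmp15 and Kit, with 0 and 7 at an unadjusted p under 0.05. The summed level of 14 granulosa and cumulus markers was 26.3 to 33.1 FPKM in controls and 60.8 to 66.6 FPKM in dKO. Of the 7 of these markers tested limma called 4 higher and 0 lower (4 and 1 at an unadjusted p under 0.05). Of the 4, Fshr, Ptgs2 and Has2 were below 1 FPKM in all controls and passed the filter only through the dKO libraries, so they had to be higher there. Fshr, Ptgs2 and Nr5a2 made up most of the sum in dKO libraries. Cyp19a1, named after its values were seen, lay the other way, at 11.3, 7.60 and 10.9 FPKM in controls and 5.23, 6.19 and 5.93 FPKM in dKO. Its groups did not overlap, and its log2 difference of -0.67 ± 0.21 (SE) just missed the threshold (limma adjusted p = 0.05004). The defining granulosa gene Foxl2 was at most 0.0972 FPKM in controls and 0.586 FPKM in dKO, Amhr2 was at most 0.0817 FPKM and Ptx3 was at 0 in all 6 libraries. The summed level of 7 theca and stroma markers was 0.613 to 1.15 FPKM in controls and 2.27 to 2.97 FPKM in dKO, and that of 3 endothelial markers 0.839 to 1.04 and 1.49 to 4.25 FPKM, both higher in every dKO library. Of the theca and stroma markers Dcn, Pdgfra and Col1a1 were higher in every dKO library. Cyp17a1, Cyp11a1, Star and Col1a2 overlapped between groups, and none of the 7 passed the filter. The sum of 4 immune markers overlapped between groups (0.551 to 2.04 and 1.42 to 3.43 FPKM), and that of 2 blood markers was 0 in controls and at most 0.125 FPKM in dKO. The part of other cell types in the results was not tested.

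Of the 37 enzymes, 31 reached 1 FPKM in at least 3 libraries and were tested, and the other 6 fell below this filter. On the log2(FPKM + 1) scale 5 rose in dKO oocytes and 4 fell (limma, Benjamini-Hochberg adjusted p under 0.05 over 11334 genes). The shares were 16.1% and 12.9%, while 14% of all tested genes rose and 7.04% fell. The split moved with scaling: 4 members rose and 2 fell after quantile normalization (1191 and 1073 of all genes), and 3 and 5 with each library centred on its mean (1452 and 1572), against 1587 and 798 of all genes as deposited. The members' median log2 change was 0.042, against -0.019 for all tested genes. The rises were Kmt2a, Setd7, Kdm3a, Setd8 and Kdm1a, and the falls were Kmt2e, Suv39h1, Nsd1 and Kdm6b. Kmt2a and Setd7 were below 1 FPKM in all controls and passed the filter only through the dKO libraries, so they had to be higher there. In 15 of the 31 (48.4%) the groups did not overlap, 9 of them higher and 6 lower in dKO, and 41.5% of all tested genes did not overlap either. With the replicate number as a block, which stands for a shared flow-cell lane, 3 rose and 4 fell, because Setd8 and Kdm1a were no longer past the threshold (14.8% and 7.83% of all genes rose and fell in that fit). With no filter 5 of 37 rose and 3 fell (9.88% and 2.68% of 20310 genes). Those 5 held Kdm4c (limma adjusted p = 0.0368) in place of Kdm3a (0.0988), and Kdm6b lost its call (0.0859).

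**Figure D1:**
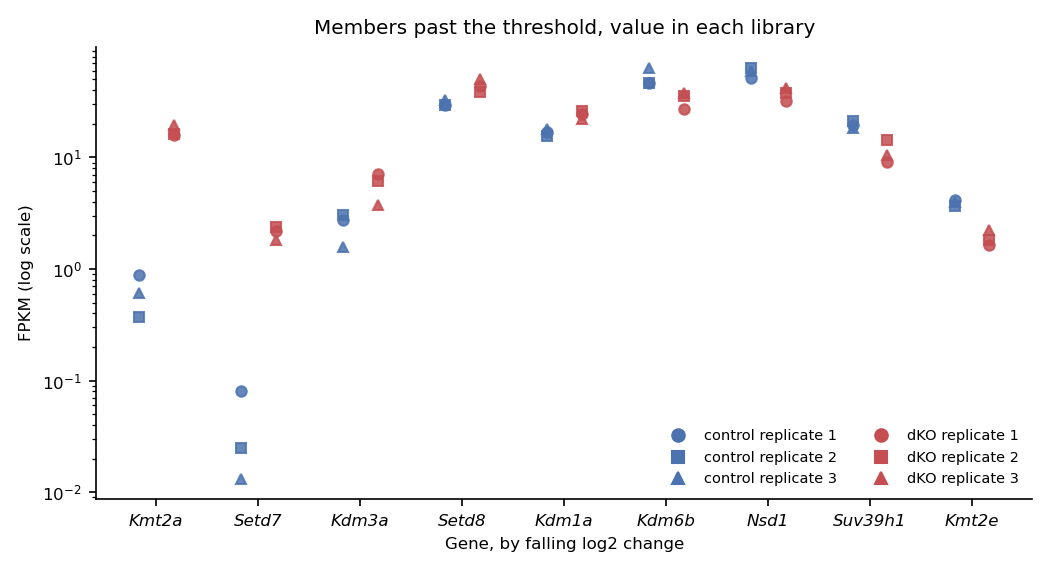
FPKM on a log axis for the 9 members past the threshold, ordered from the largest rise to the largest fall, with 1 point for each library, controls in blue and dKO in red. The groups do not overlap for any of the 9, and Kmt2a and Setd7 are the only ones whose controls all lie under 1 FPKM.

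Among H3K4 methyltransferases, Kmt2a rose from a very low level and Setd7 with it, while Kmt2e fell. Kmt2a encodes MLL1, which methylates H3K4 at Hox and other developmental genes and is the classic Trithorax counterpart of Polycomb. It stood at 0.882, 0.371 and 0.604 FPKM in control oocytes, against 15.7, 16.3 and 19.5 FPKM in dKO. All dKO libraries were far above all controls, and the mean was 27.8 times as high. On the log2 scale it differed by 3.50 ± 0.21 (SE), with an adjusted p of 1.91e-05 in limma. Setd7, whose enzyme adds a single methyl group to H3K4 and also methylates many non-histone proteins, stood at 0.0809, 0.0249 and 0.0132 FPKM in control oocytes, against 2.20, 2.40 and 1.83 FPKM in dKO. It was thus nearly undetected in every control and low but present in every dKO library, with a log2 difference of 1.59 ± 0.16 (SE) and an adjusted p of 0.000212 in limma. Kmt2a was past the threshold under all 16 alternative settings and Setd7 under all 15 that kept it. Both entered the filtered fits only through the dKO libraries, so passing those settings is no separate support. With no filter the limma adjusted p was 0.00133 for Kmt2a and 0.00212 for Setd7. Annotated transcripts of the other strand overlap 378 of 16470 exon bases of Kmt2a and 131 of 7411 of Setd7.

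Kmt2e moved the other way. Its product MLL5 binds methylated H3K4 through a PHD finger and has no firmly established methyltransferase activity. It stood at 4.13, 3.67 and 3.96 FPKM in control oocytes, against 1.63, 1.84 and 2.24 FPKM in dKO, 48.5% of the control mean. The groups were well apart, with a log2 difference of -0.77 ± 0.19 (SE) and an adjusted p of 0.0210 in limma. The call was lost on removal of control replicate 1, 2 or 3 (limma adjusted p = 0.0915, 0.0751 and 0.0799). In the reference annotation 972 of its 7325 exon bases overlap the protein-coding gene Srpk2 on the other strand, and the use of strand is not given in the sources used here.

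The other Kmt2 genes were abundant in controls and did not pass the test. Kmt2c and Kmt2d encode the MLL3 and MLL4 enzymes that add 1 methyl group to H3K4 at enhancers, and Kmt2b encodes MLL2, which oocytes need for bulk H3K4 trimethylation. Kmt2c had the highest control mean of all members, while in dKO its mean of 62.0 FPKM was below those of Suv39h2 (73.3 FPKM) and Kdm1b (68.4 FPKM). It stood at 78.7, 83.5 and 85.05 FPKM in control oocytes, against 42.4, 53.4 and 90.35 FPKM in dKO, so dKO replicate 3 lay above every control and the other two below. Its log2 change was -0.48 ± 0.25 (SE; limma adjusted p = 0.210), and without dKO replicate 3 it was -0.78 (limma adjusted p = 0.00787). Kmt2d stood at 37.8, 45.1 and 41.5 FPKM and at 21.2, 36.9 and 40.3 FPKM, and Kmt2b at 16.97, 20.6 and 20.8 FPKM and at 10.04, 17.7 and 14.3 FPKM. Their groups overlapped, with log2 changes of -0.38 and -0.47 (limma adjusted p = 0.284 and 0.160). Within each pair of libraries that shared a lane both genes were lower in dKO, and with the replicate block neither passed the threshold (limma adjusted p = 0.203 for Kmt2d and 0.116 for Kmt2b).

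Within the sum of Kmt2a to Kmt2d, Kmt2a made up 0.656%, 0.248% and 0.408% in controls and 17.6%, 13.1% and 11.9% in dKO libraries 1 to 3. The share of Kmt2c was 55.8% to 58.6% in controls and 42.9% to 54.9% in dKO. All 4 shares are parts of the same sum, so the larger Kmt2a share in dKO by itself lowers the others. The FPKM of Kmt2c overlapped between groups. Kmt2b held 12.6% to 14.0% in controls and 8.71% to 14.3% in dKO, a range that spans the control values.

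**Figure D2:**
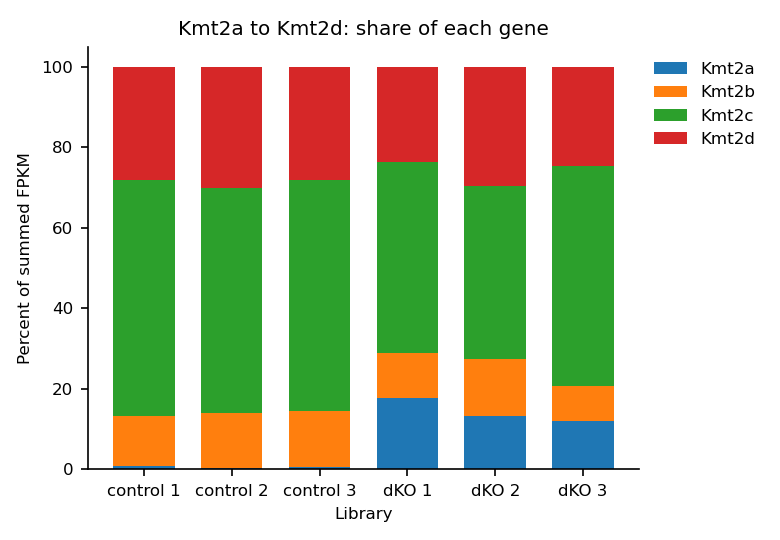
Stacked bars of the percent of summed FPKM held by each of Kmt2a to Kmt2d in each of the 6 libraries. The Kmt2a segment is under 1% in every control and between 11.9% and 17.6% in the dKO libraries.

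The remaining H3K4 enzymes differed by less. Setd1a and Setd1b, catalytic subunits of the SET1 complexes that trimethylate H3K4 at promoters, had log2 changes of -0.22 and 0.04 (limma adjusted p = 0.401 and 0.884). Setd1a lay between 22.6 and 34.6 FPKM and Setd1b between 9.11 and 10.9 FPKM over all libraries. The Setd1a value is uncertain, since 3523 of its 6612 exon bases are shared with Gm49388, annotated as a protein-coding gene on the same strand. Smyd3, a SET and MYND domain enzyme, stood at 9.72, 9.93 and 9.41 FPKM in control oocytes, against 11.2, 13.8 and 12.6 FPKM in dKO. Its groups did not overlap, but the log2 change of 0.34 ± 0.17 (SE) was not past the threshold (limma adjusted p = 0.189). In all, 2 of the 9 tested genes of this class rose and 1 fell (14% and 7.04% of all tested genes). The 2 rises were Kmt2a and Setd7, which passed the filter only through the dKO libraries. The median log2 change of the class was -0.22, against -0.019 for all tested genes. The summed level of the 10 genes was 188 to 207 FPKM in controls and 139 to 223 FPKM in dKO, so the groups overlapped.

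**Figure D3:**
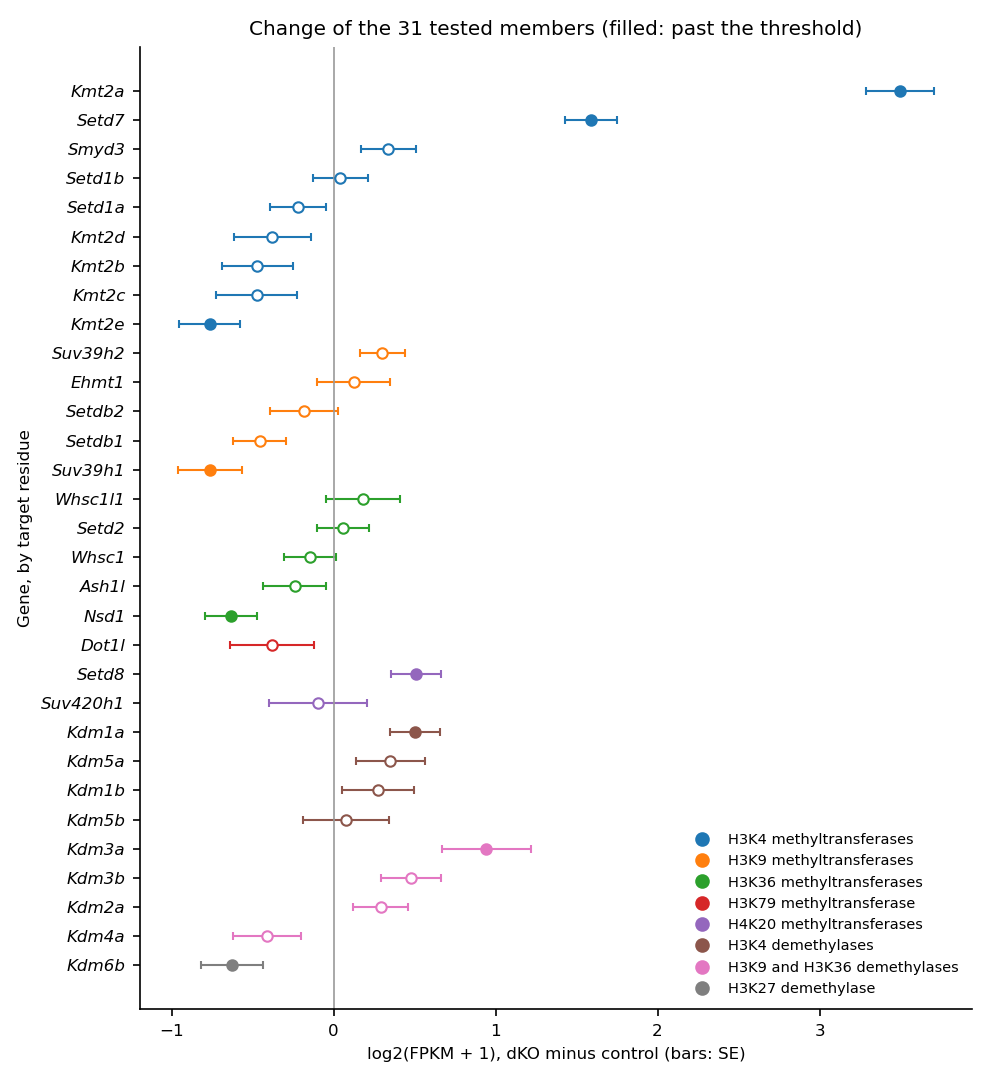
Log2 change of each of the 31 tested members (dKO minus control, log2(FPKM + 1)) with its SE as bars, coloured by target residue, with filled points past the threshold. Kmt2a at 3.50 and Setd7 at 1.59 stand apart from the other 29, which lie between -0.77 and 0.94.

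Of 6 H3K9 methyltransferase genes 5 entered the test, and limma called 0 higher and 1 lower (unadjusted p = 0.00408 for that gene, Suv39h1, and 0.0220 for Setdb1), with a median log2 change of -0.18. Over all tested genes 14% were called higher and 7.04% lower, with a median of -0.019. Suv39h1, which trimethylates H3K9 at pericentromeric heterochromatin, stood at 19.6, 21.0 and 18.2 FPKM in control oocytes, against 9.08, 14.5 and 10.4 FPKM in dKO. Every dKO library was below every control, and the dKO mean was 57.8% of the control mean. On the log2 scale it differed by -0.76 ± 0.20 (SE), with an adjusted p of 0.0260 in limma. In the reference annotation 551 of its 4971 exon bases overlap the antisense gene Gm14820. The call was lost without control replicate 1, 2 or 3 (limma adjusted p = 0.0972, 0.115 and 0.0764) and without dKO replicate 1 (0.0552).

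Suv39h2, the close paralog with the same activity, stood at 55.5, 59.4 and 63.2 FPKM in control oocytes, against 75.7, 68.9 and 75.3 FPKM in dKO. All its dKO values were the higher ones, with a log2 change of 0.30 ± 0.14 (SE) that was not past the threshold (limma adjusted p = 0.156). Within each library the level of Suv39h2 was 2.83, 2.83 and 3.47 times that of Suv39h1 in controls and 8.33, 4.77 and 7.21 times in dKO. Of the Suv39h2 exon bases 357 of 4327 overlap Dclre1c on the other strand.

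Setdb1, which trimethylates H3K9 at retrotransposons with the corepressor Trim28, was the most abundant of the class in controls, while in dKO its mean of 58.7 FPKM was below the 73.3 FPKM of Suv39h2. It stood at 76.1, 82.2 and 82.0 FPKM in control oocytes, against 52.5, 71.2 and 52.3 FPKM in dKO. The groups did not overlap, but the log2 change of -0.46 ± 0.16 (SE) missed the threshold (limma adjusted p = 0.0823). It was past it with each library centred on its mean (limma adjusted p = 0.0239) and without dKO replicate 2 (0.0155). Setdb2 and Ehmt1, a dimethyltransferase of H3K9, overlapped between groups, with log2 changes of -0.18 and 0.12 and levels of 4.93 to 9.13 FPKM over both genes.

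H3K36 methyltransferases were all tested, 5 of 5, and 0 rose and 1 fell, with a median log2 change of -0.15 (limma unadjusted p = 0.00351 for the fall and 0.248 or more for the other 4). The shares over all tested genes were 14% and 7.04%, with a median of -0.019. Nsd1, a dimethyltransferase of H3K36, stood at 51.8, 63.9 and 59.4 FPKM in control oocytes, against 32.2, 38.1 and 41.7 FPKM in dKO. The highest dKO library was below the lowest control. On the log2 scale it differed by -0.63 ± 0.16 (SE), with an adjusted p of 0.0234 in limma. The call was lost after quantile normalization (limma adjusted p = 0.0526) and without control replicate 1, 2 or 3 (0.0538, 0.123 and 0.103). Setd2, the main H3K36 trimethylating enzyme, which oocytes need for their DNA methylation, stood at 38.7, 40.1 and 37.5 FPKM and at 38.8, 35.1 and 48.5 FPKM. Its dKO values lay on both sides of the controls, with a log2 difference of 0.06 ± 0.16 (SE) and an adjusted p of 0.820 in limma. The sign of this difference turned in 2 alternatives.

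Whsc1 and Whsc1l1, now named Nsd2 and Nsd3, and Ash1l, a Trithorax-group dimethyltransferase of H3K36, had log2 changes of -0.15, 0.18 and -0.24 (limma adjusted p = 0.550, 0.607 and 0.409). Their groups overlapped. Dot1l, the only known H3K79 methyltransferase and the only member without a SET domain among the writers, stood at 15.9, 20.1 and 17.8 FPKM in control oocytes, against 8.48, 16.7 and 16.997 FPKM in dKO. The dKO replicate 1, the library of lowest relative depth, was far below the others. Dot1l was lower in dKO in all 3 lane pairs (adjusted p of 0.229 with the replicate block in limma), and the log2 change of -0.38 ± 0.26 (SE) was not past the threshold (limma adjusted p = 0.326).

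DNA methyltransferase genes that meet these marks were on the list of H3K36 partners and readers. Dnmt3a, whose PWWP domain binds methylated H3K36 and which methylates the oocyte genome, fell from 34.3, 34.5 and 33.8 FPKM to 21.2, 23.8 and 24.0 FPKM, a log2 difference of -0.56 ± 0.14 (SE) with an adjusted p of 0.0242 in limma. Its cofactor Dnmt3l fell from 40.7, 43.2 and 40.9 FPKM to 25.7, 30.5 and 19.3 FPKM, a log2 difference of -0.73 ± 0.19 (SE) with an adjusted p of 0.0236 in limma. Every dKO library was below every control for both genes. Dnmt3b, the other de novo DNA methyltransferase gene of the list, named after its values were seen, lay the other way, at 7.08, 5.63 and 4.49 FPKM in controls and 9.49, 10.25 and 8.90 FPKM in dKO. Its groups did not overlap, and its log2 difference of 0.66 ± 0.21 (SE) just missed the threshold (adjusted p of 0.0512 in limma). These were 2 falls and 0 rises among 9 tested genes of the list in limma (7.04% and 14% of all tested genes), with 2 and 1 at an unadjusted p under 0.05. Both calls were lost without control replicate 1, 2 or 3 (limma adjusted p = 0.108, 0.118 and 0.103 for Dnmt3a and 0.0831, 0.0993 and 0.0862 for Dnmt3l), and that of Dnmt3a also after quantile normalization (0.0595).

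**Figure D4:**
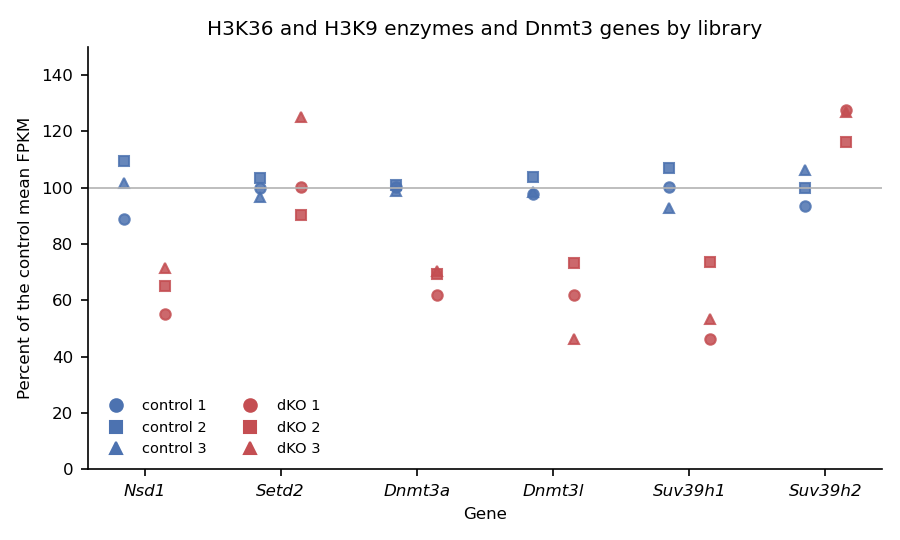
Level in each library as a percent of the control mean for the H3K36 enzymes Nsd1 and Setd2, the DNA methyltransferase genes Dnmt3a and Dnmt3l, and the H3K9 enzymes Suv39h1 and Suv39h2, with controls in blue and dKO in red. Nsd1, Dnmt3a, Dnmt3l and Suv39h1 lie between 46.3% and 73.8% in dKO libraries, Setd2 between 90.5% and 125%, and Suv39h2 between 116% and 127%.

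Of the 3 H4K20 methyltransferase genes Setd8, now named Kmt5a, rose. It encodes the only enzyme that adds the first methyl group to H4K20, a step tied to the cell cycle. It stood at 29.6, 29.8 and 32.5 FPKM in control oocytes, against 43.5, 39.0 and 50.1 FPKM in dKO, 1.44 times the control mean. The groups were apart, with a log2 difference of 0.51 ± 0.15 (SE) and an adjusted p of 0.0453 in limma, but the call was near the threshold and held under 6 of 16 alternatives. With the replicate block the limma adjusted p was 0.0637, and without any 1 library other than dKO replicate 2 it was 0.0562 to 0.170. Suv420h1, which adds the further methyl groups, stood at 2.27, 2.20 and 2.44 FPKM in control oocytes, against 3.68, 2.25 and 0.938 FPKM in dKO, with 1 dKO library above, 1 within and 1 below the control range. The ratio of Setd8 to Suv420h1 was 13.0 to 13.5 in controls and 11.8, 17.3 and 53.5 in dKO libraries 1 to 3.

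Among the demethylases 9 of 12 were tested, of which 2 rose and 1 fell, with a median log2 change of 0.29. The 2 rises were Kdm1a and Kdm3a. Kdm1a encodes LSD1, a flavin-dependent enzyme that removes methyl groups from H3K4. It stood at 16.96, 15.7 and 17.95 FPKM in control oocytes, against 24.5, 26.2 and 22.1 FPKM in dKO, with no overlap and a dKO mean 1.44 times as high. On the log2 scale it differed by 0.50 ± 0.15 (SE), with an adjusted p of 0.0498 in limma, at the edge of the threshold. The call held under 5 of 16 alternatives. With the replicate block the limma adjusted p was 0.0866, and without any 1 library other than dKO replicate 3 it was 0.0690 to 0.203.

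Kdm1b, the paralog LSD2, which growing oocytes need to remove H3K4 methylation before imprints are set, was more abundant. It stood at 61.3, 59.3 and 45.7 FPKM in control oocytes, against 82.4, 74.7 and 48.2 FPKM in dKO. Replicate 3 was the lowest library in both groups, and the groups overlapped (log2 change 0.27 ± 0.22, SE; limma adjusted p = 0.411). Kdm1b was higher in dKO in all 3 lane pairs (adjusted p of 0.288 with the replicate block in limma). Of its 4987 exon bases 498 overlap Dek on the other strand. The other H3K4 demethylase genes, Kdm5a and Kdm5b, were low, at 0.957 to 2.69 and 0.477 to 1.79 FPKM over all libraries. Their groups overlapped and neither log2 difference, 0.35 and 0.07, passed the test (adjusted p of 0.275 and 0.866 in limma).

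Kdm3a, a Jumonji enzyme that removes methyl groups from H3K9, stood at 2.73, 3.04 and 1.58 FPKM in control oocytes, against 7.13, 6.19 and 3.73 FPKM in dKO. The lowest dKO library lay just above the highest control, with the mean 2.32 times as high. On the log2 scale it differed by 0.94 ± 0.28 (SE), with an adjusted p of 0.0409 in limma. The call held under 7 of 15 alternatives and was lost with no filter (limma adjusted p = 0.0988), after quantile normalization (0.0833), with array weights (0.0533) and without any 1 library other than dKO replicate 3 (0.0712 to 0.161). With the replicate block the limma adjusted p was 0.0137.

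Its paralog Kdm3b stood at 9.70, 8.80 and 7.04 FPKM in control oocytes, against 11.4, 12.03 and 13.07 FPKM in dKO. These groups did not overlap either, but the log2 change of 0.48 ± 0.19 (SE) was not past the threshold (limma adjusted p = 0.102). Kdm2a, an H3K36 demethylase with a CpG-binding zinc finger, was higher in every dKO library (12.04 to 15.3 FPKM against 10.996 to 11.5 FPKM), and Kdm4a, which acts on H3K9 and H3K36, was lower in every one (5.73 to 8.87 FPKM against 9.49 to 11.6 FPKM). Neither was past the threshold (limma adjusted p = 0.256 and 0.193).

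Kdm6b, the H3K27 demethylase JMJD3, which removes the mark set by PRC2, fell in dKO oocytes. It stood at 46.5, 46.6 and 63.2 FPKM in control oocytes, against 26.9, 35.5 and 37.7 FPKM in dKO, 64.1% of the control mean, with no overlap. The antisense gene Kdm6bos overlaps 286 of its 6654 exon bases. On the log2 scale it differed by -0.63 ± 0.19 (SE), with an adjusted p of 0.0478 in limma. The call held under 5 of 16 alternatives, and without any 1 library other than dKO replicate 3 the limma adjusted p was 0.0558 to 0.201. Its X-linked paralog Kdm6a, which was outside the 37 and named after its values were seen, was the more abundant, at 91.9, 98.1 and 96.5 FPKM in controls and 58.3, 67.9 and 82.0 FPKM in dKO. Every dKO value was lower, but the log2 change of -0.47 ± 0.16 (SE) was not past the threshold (limma adjusted p = 0.0724).

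The 6 members below the filter were Prdm9, Ehmt2, Suv420h2, Kdm4b, Kdm4c and Kdm4d. Kdm4c, a demethylase of H3K9 and H3K36, stood at 0.484, 0.316 and 0.221 FPKM in control oocytes, against 1.63, 1.18 and 0.908 FPKM in dKO, with no overlap. Added to the tested genes it had a log2 difference of 0.73 ± 0.18 (SE) with an adjusted p of 0.0207 in limma. Kdm4c was past the threshold under 12 of 15 alternatives, among them no filter (limma adjusted p = 0.0368). It was not past it after quantile normalization (0.645) or without control replicate 2 or 3 (0.0851 and 0.0939). The groups of the other 5 overlapped. Prdm9, which places meiotic recombination sites by H3K4 and H3K36 methylation, lay between 0.223 and 0.817 FPKM, Ehmt2, the partner of Ehmt1 in H3K9 dimethylation, between 0.0444 and 0.452 FPKM, and Suv420h2 between 0.166 and 0.567 FPKM. Kdm4b lay between 0.375 and 0.897 FPKM and Kdm4d between 0.128 and 0.521 FPKM.

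**Figure D5:**
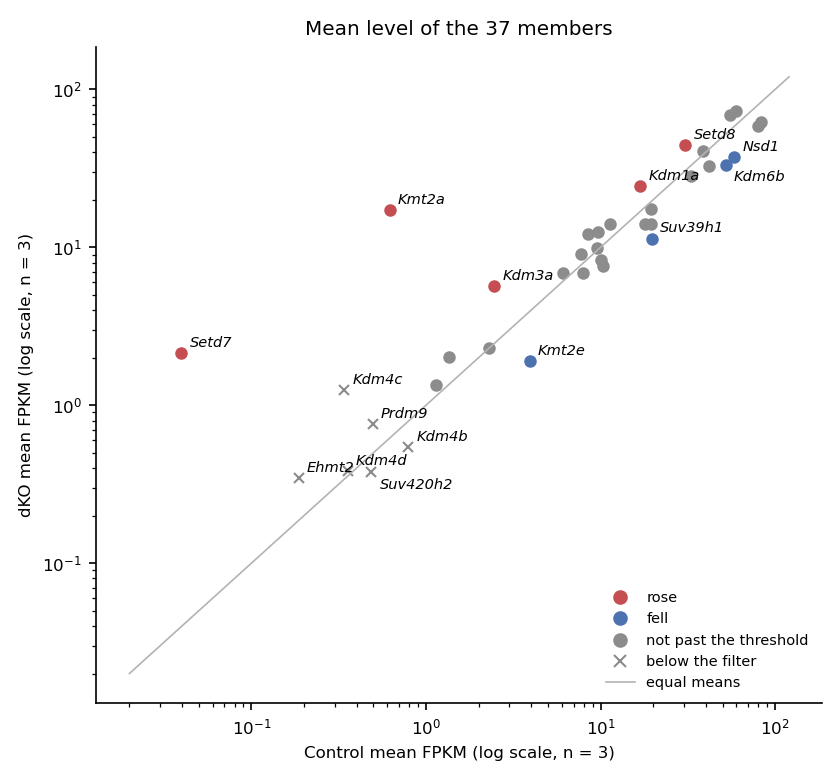
Mean FPKM of each of the 37 members in dKO (y axis) against control (x axis), both on log scales, with a line at equal means; crosses are the 6 members below the filter. Kmt2a and Setd7 lie farthest above the line.

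Partners of the enzymes were read from lists of complex subunits and readers. Beside the counts of these lists, 14% of all tested genes rose and 7.04% fell. Among 12 subunits of the H3K4 methyltransferase complexes 0 rose and 0 fell in limma's test (unadjusted p = 0.0135 for Ash2l, lower, and 0.0301 for Mga, higher, both named after their values were seen, and 0.0943 or more for the other 10). Psip1, which tethers the MLL1 complex to chromatin and was the most abundant, stood at 82.3, 77.6 and 84.8 FPKM in control oocytes, against 78.5, 54.8 and 99.5 FPKM in dKO. The core subunit genes Wdr5, Rbbp5, Dpy30 and Men1 also missed the threshold (adjusted p in limma = 0.612, 0.834, 0.451 and 0.231). Their levels lay between 12.7 and 71.3 FPKM over all libraries.

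In the H3K9 list limma called 1 of 15 higher and 0 lower (2 and 1 at an unadjusted p under 0.05). It was Atf7ip2, a relative of the Setdb1 cofactor Atf7ip. Its levels were 4.43, 3.44 and 4.14 FPKM in controls and 10.5, 7.17 and 13.1 FPKM in dKO. The log2 change was 1.14 ± 0.24 (SE), with an adjusted p of 0.0106 in limma, and 0.0529 without control replicate 2. Atf7ip itself, named after its values were seen, lay the other way. It was at 58.5, 65.3 and 65.9 FPKM in controls and 27.9, 39.0 and 54.6 FPKM in dKO. Its groups did not overlap, but its log2 difference of -0.68 ± 0.23 (SE) missed the threshold (adjusted p of 0.0658 in limma). Of 5 tested H3K79 partners, Mllt10, which joins Dot1l in its complex, fell from 124, 131 and 126 FPKM to 55.3, 70.5 and 88.7 FPKM (log2 change -0.85 ± 0.19, SE; limma adjusted p = 0.0122, and 0.0583 and 0.0543 without control replicate 2 or 3). Mllt6 had a log2 difference of 0.61 ± 0.16 (SE) with an adjusted p of 0.0272 in limma at levels of at most 1.29 FPKM. It was below 1 FPKM in all controls and passed the filter only through the dKO libraries, so on the deposited scale it had to be higher there. After quantile normalization the difference of Mllt6 turned to -0.0039. It also lost its call with mean centring (0.0559) and without control replicate 1, 2 or 3 or dKO replicate 1 (limma adjusted p = 0.0658, 0.139, 0.0957 and 0.0557).

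Of 4 tested H4K20 readers Trp53bp1, the DNA damage protein 53BP1 that binds dimethylated H4K20, fell from 18.7, 20.7 and 20.5 FPKM to 8.71, 11.6 and 9.38 FPKM (log2 change -0.95 ± 0.17, SE; limma adjusted p = 0.00503). Among 10 demethylase partners Phf21a, a subunit of the LSD1 complex that reads unmethylated H3K4, rose from 2.75, 2.85 and 2.73 FPKM to 5.94, 7.67 and 8.96 FPKM (log2 change 1.16 ± 0.21, SE; limma adjusted p = 0.00468). Both were past the threshold under all 16 alternatives. Gse1, another protein of LSD1 complexes, fell from 30.9, 35.7 and 36.8 FPKM to 12.1, 21.6 and 25.5 FPKM (limma adjusted p = 0.0477), and held under 6 of 16 alternatives. Its limma adjusted p was 0.0540 to 0.155 without any 1 library other than dKO replicate 3. Among the H4K20 readers limma called 0 higher and 1 lower (0 and 2 at an unadjusted p under 0.05). Among the demethylase partners it called 1 higher and 1 lower (3 and 2 at an unadjusted p under 0.05).

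Of 9 genes of methyl donor supply limma called 2 higher and 0 lower (2 and 1 at an unadjusted p under 0.05). Mat2a makes S-adenosylmethionine, the methyl donor of every methyltransferase here. It stood at 36.6, 33.9 and 28.9 FPKM in control oocytes, against 78.6, 55.2 and 55.8 FPKM in dKO (log2 change 0.90 ± 0.18, SE; limma adjusted p = 0.00904, and 0.0540 without control replicate 3). Mat1a, a paralog that also makes S-adenosylmethionine, named after its values were seen, lay the other way, at 9.40, 9.82 and 7.09 FPKM in controls and 4.74, 5.43 and 5.49 FPKM in dKO. Its groups did not overlap, and its log2 difference of -0.64 ± 0.20 (SE) just missed the threshold (adjusted p of 0.0506 in limma). Ahcyl1, related to the enzyme that clears the spent donor, was the other (log2 change 0.68 ± 0.18, SE; limma adjusted p = 0.0266), and was lost without control replicate 1, 2 or 3 or dKO replicate 1 (0.0868, 0.0621, 0.130 and 0.0588). Of 16 tested enzymes of the same families outside the 37, 2 rose and 1 fell. Smyd2 stood at 3.90, 3.00 and 2.61 FPKM in control oocytes, against 9.51, 15.2 and 6.53 FPKM in dKO, with a log2 difference of 1.39 ± 0.29 (SE) and an adjusted p of 0.0102 in limma. Phf2, a Jumonji protein, and Smyd5 had log2 changes of 0.72 and -1.10 (limma adjusted p = 0.0327 and 0.0134). Phf2 was lost after quantile normalization (0.0624), with mean centring (0.0569) and without control replicate 1, 2 or 3 or dKO replicate 3 (0.131, 0.0959, 0.107 and 0.0531), and Smyd5 with no filter (0.0511) and without control replicate 1 or 3 (0.0547 and 0.0602).

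Across the 31 tested members the larger rises stood at low control levels. Pearson's r between log2(control mean + 1) and log2 change was -0.56 and Spearman's rho -0.47, given as a description, since the control values enter both and the filter favours genes that are high in dKO. The dKO libraries varied more than the controls at the members, where the median SD on the log2 scale was 0.251 in dKO and 0.0983 in controls, as over all tested genes (0.316 and 0.141). The dKO replicate 1 was the lowest of its group at 14 of the 31 members and replicate 3 the highest at 16. Among controls, replicate 1 was the lowest at 15, and replicates 2 and 3 were the highest at 13 and 12. By class, the summed level in dKO lay above every control for the H4K20 methyltransferases (41.8 to 51.2 against 32.4 to 35.4 FPKM) and for the H3K9 and H3K36 demethylases (39.6 to 44.0 against 30.9 to 36.6 FPKM), and below every control for the H3K27 demethylase Kdm6b. The sums of the other 5 classes overlapped between groups. Setd8 alone held 29.6 to 32.5 FPKM of the H4K20 sum in controls and 39.0 to 50.1 FPKM in dKO. Suv420h1 and Suv420h2 each overlapped between groups. Of the H3K9 and H3K36 demethylases Kdm2a, Kdm3a, Kdm3b and Kdm4c were higher in every dKO library and Kdm4a was lower. Only Kdm3a of the tested genes in that class was past the threshold.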

How the data were processed

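Total RNA of oocyte pools was amplified with the Ovation v2 kit and sequenced on a HiSeq instrument, per the labels' protocols. The deposited values are FPKM, with 1 column per library. TopHat2 2.0.11, Cufflinks 2.0.2 and build mm9 are named in the submitters' processing notes. Not given in the sources used here are their roles, the gene models, strandedness and scaling between samples. Of 24525 rows 497 repeated a symbol with all its values and were removed.

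The 11334 genes that reached 1 FPKM in 3 or more libraries were fitted on log2(FPKM + 1) with limma 3.58.1 in R 4.3.3 (eBayes with trend, two-sided, Benjamini-Hochberg over all of them, threshold 0.05). These log2 values understate changes of low genes. Members below the filter were fitted with the kept genes added. The fit was tested on simulated data with the same spread in both groups, whereas the dKO libraries here varied more than the controls. The members and lists were chosen with earlier results of these data known. All members may be named, with up to 3 rises and 3 falls of each partner list, or its most abundant gene where none passed.

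Replicate numbers pair the libraries, since the labels place each number on 1 flow-cell lane. Deviations of same-numbered libraries correlated at 0.147, 0.107 and 0.0637. The index sequence differed between groups and was shared within them, and its effect cannot be told apart from genotype. Alternatives were other pseudocounts, filters, scalings, weights and thresholds, the replicate block, and removal of each library. Exon overlaps come from GENCODE on GRCm38, matched by name.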

Additional observations from a re-analysis of the deposited data

How the results depend on the processing

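With the filter at 5 FPKM 1 member rose and 2 fell (655 genes rose and 559 fell in all). Setd7, Kdm3a and Kmt2e were then not tested, while Setd8, Kdm1a and Kdm6b were tested and missed the threshold (limma adjusted p = 0.0537, 0.0585 and 0.0572). The members that rose were 3 with mean centring, with no trend and with the replicate block (1452, 1615 and 1681 genes in all). At a threshold of 0.01 2 members rose and 0 fell (995 genes rose and 181 fell in all). After quantile normalization 2 members fell (1073 genes in all). With mean centring 5 members fell (1572 genes in all). Removal of 1 library left 2 to 4 members that rose and 0 to 5 that fell. It left 1087 to 1869 genes that rose in all, the highest without dKO replicate 3. The genes that fell in all were 231 to 1465, the highest without dKO replicate 2. Without control replicate 1, 2 or 3 limma called 0 members lower, with 5, 4 and 3 lower at an unadjusted p under 0.05, and 258, 262 and 231 genes fell in all. The replicate block ended the calls of Setd8 and Kdm1a and of no other member. The median log2 change of all genes was -0.019, and -0.12 with mean centring.

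The members whose sign turned were not past the threshold as reported, the partner Mllt6 was, and the cause was not tested. After quantile normalization these were Prdm9 (-0.34), Ehmt1 (-0.0080), Ehmt2 (-0.34), Kdm5a (-0.00098), Kdm5b (-0.32) and Kdm4d (-0.48), with Mllt6 (-0.0039) and Psip1 (0.043) among partners. With mean centring these were Setd1b (-0.063), Setd2 (-0.046), Kdm5b (-0.031) and Kdm4d (-0.066), and with array weights Kdm4d (-0.0060). On removal of 1 library the log2 change ranged from -0.027 to 0.092 for Setd1b, -0.039 to 0.31 for Ehmt1, -0.069 to 0.16 for Setd2, -0.39 to 0.24 for Suv420h1, -0.080 to 0.38 for Kdm5b, -0.088 to 0.13 for Kdm4d and -0.31 to 0.12 for Psip1. Of 580 values of single members under alternatives, 502 kept direction and side of the threshold, 54 lost the call, 5 gained one and 19 changed sign. Absolute depth is unknown, so no counting error is given for values near 0.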
